A study of Mus musculus with 12 samples.

Results

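The genes described here are the nuclear genes of the mitochondrial respiratory chain and ATP synthase, taken as every row of the deposited table whose symbol begins with Nduf, Uqcr, Atp5 or Cox followed by 4 to 8, together with Sdha, Sdhb, Sdhc, Sdhd, Cyc1 and Cycs. The rule found 99 of the 15170 genes in the table. Of these, 78 encode subunits: 37 of complex I, 4 of complex II, 9 of complex III, 11 of complex IV and 17 of complex V. The others are 8 complex I assembly factors of the Ndufaf series, 7 tissue or condition isoforms, 3 extra gene copies, 1 pseudogene, the supercomplex factor Cox7a2l and Cycs, the gene of somatic cytochrome c.

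The RNA came from wild type tumors of MC38, a mouse colon adenocarcinoma cell line, given either vehicle or BG136 by the intravenous route; BG136 is a soluble β-1,3/1,6-glucan. There were 6 vehicle libraries (numbered 1, 2, 3, 7, 11 and 12) and 6 BG136 libraries (numbered 1, 2, 4, 6, 7 and 9). Host age, dose and schedule were not given in the sources used here, and the labels do not tie samples to animals. Each p-value therefore reflects only how far these samples spread, which may be technical. BG136 libraries 7 and 9 differed by less than sampling noise and were averaged into 1 sample, called BG136 7-9, which left 5 BG136 and 6 vehicle samples.

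The respiratory chain passes electrons from NADH through complex I, or from succinate through complex II, to ubiquinone, then through complex III and cytochrome c to complex IV, which reduces oxygen. Complexes I, III and IV pump protons, and complex V, the ATP synthase, uses the gradient to make ATP. Complexes I, III, IV and V combine subunits encoded in the nucleus with subunits encoded in mitochondrial DNA, whereas complex II is encoded in the nucleus alone. Assembly factors such as those of the Ndufaf series help to build a complex and are not part of the finished enzyme. Many promoters of these genes carry sites for nuclear respiratory factor 1 (NRF1) and for ETS family proteins such as GABP.

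Promoter windows of RefSeq (build GRCm38.p6, 250 bases before to 50 after the start) were at hand for 79 of the 99 genes, and 3 motifs were searched on both strands: GCGCANGCG for NRF1, CCGGAAG for the ETS core and AAGATGGCG for YY1. The NRF1 letters were found for 23 of the 79 (29.1%), against 7.03% of all 27025 genes with a window and 15.7% of the 9114 that were also expressed enough to be tested. For the ETS core these shares were 24.1%, 9.93% and 21.2%, and for YY1 they were 10.1%, 1.64% and 3.79%. Among the Ndufaf genes, 2 of 7 held the NRF1 letters and 2 of 7 the ETS core. Both NRF1 and ETS letters were found for 6 of the 79 (7.59%), against 1.49% of all genes with a window and 3.72% of those tested. A match describes letters in the window and was not tested as a binding site. The windows of a complex IV subunit, a complex II subunit and an assembly factor are printed because these kinds of gene are set side by side in the results. These windows all hold NRF1 letters, which most of the 79 genes lacked, and do not stand for their kinds of gene. They run 5′ to 3′ up to the base before the start, with matches in capitals: the runs that begin with GCGC are NRF1 matches, overlapping on both strands where the run is longer than the motif, and CTTCCGG is the ETS core read on the other strand.
Cox6a1, chr5:115348959-115349208, minus strand: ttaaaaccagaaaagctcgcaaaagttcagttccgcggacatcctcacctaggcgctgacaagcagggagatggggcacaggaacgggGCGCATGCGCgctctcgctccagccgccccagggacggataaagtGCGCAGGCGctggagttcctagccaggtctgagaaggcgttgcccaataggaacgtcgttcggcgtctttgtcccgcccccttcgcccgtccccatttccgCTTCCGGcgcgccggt
Sdhd, chr9:50603850-50604099, minus strand: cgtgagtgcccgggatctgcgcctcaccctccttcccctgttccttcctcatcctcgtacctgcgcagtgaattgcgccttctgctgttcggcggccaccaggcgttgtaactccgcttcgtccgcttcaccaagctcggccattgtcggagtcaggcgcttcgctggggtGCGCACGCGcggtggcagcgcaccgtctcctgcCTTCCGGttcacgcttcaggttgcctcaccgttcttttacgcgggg
Ndufaf4, chr4:24897833-24898082, plus strand: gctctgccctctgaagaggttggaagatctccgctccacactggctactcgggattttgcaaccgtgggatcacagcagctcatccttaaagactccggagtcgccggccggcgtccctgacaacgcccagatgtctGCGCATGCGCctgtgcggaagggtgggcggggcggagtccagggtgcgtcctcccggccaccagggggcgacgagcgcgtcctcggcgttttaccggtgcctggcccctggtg

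Whole reads recovered from the table gave 14828786 to 18125931 reads per library in 10 libraries, and 33231037 and 32956232 in BG136 libraries 7 and 9. Vehicle 11 and vehicle 12 were the highest samples in the mean over the subunit genes, and the comparisons of the members are given with and without them. The summed level of 5 epithelial markers ran from 3.13 FPKM in BG136 6 and 4.67 in BG136 4 to 33.2 in BG136 2; Krt18 was listed at 0 in BG136 4 and 6, where Cdh1 read 4.41 and 2.84. The summed level of 11 skeletal muscle markers ran from 5.19 FPKM in BG136 1 to 322 in vehicle 3. These are bulk samples, so fewer cells of a type and less RNA per cell cannot be told apart. The 13 mitochondrially encoded subunit genes were not analysed here.

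By the median of their mean levels, the subunit genes were among the more abundant mRNAs and the assembly factors were not, although the groups overlapped. Levels are in FPKM, a value scaled to transcript length and library depth that allows genes to be compared. Each gene was taken as its mean over the 11 samples. The 78 subunits then had a median of 97.2, against 11.2 for the 11356 genes tested. Their median stood at the 94.2th percentile of those genes, and the lowest subunit, Ndufa11, stood at the 65.2th. The 8 Ndufaf genes ran from 2.04 FPKM (Ndufaf6) to 26.5 (Ndufaf8), with a median of 8.17. They stood at the 8.84th to the 74.5th percentile, with a median at the 40th, so that the highest of them stood above the lowest subunits. Together the 78 subunits made up 2.48% ± 0.237 (SD, n = 6) of all FPKM in the vehicle samples and 2.33% ± 0.0975 (SD, n = 5) in the BG136 samples.

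Levels differed between complexes. Complex IV had the highest median, 263 FPKM, and ran from Cox5a at 28.3 to Cox8a at 419; Cox5a lies on the matrix side of the enzyme and Cox8a is a small membrane subunit. Complex V had a median of 158 and held the highest member, Atp5b, the catalytic beta subunit, at 748, while Atp5mpl, a small membrane subunit, was lowest at 44.4. Complex III had a median of 112, from Uqcrfs1, the Rieske iron-sulfur protein, at 50.7 to Uqcrh, the hinge protein, at 199. The 4 complex II genes lay close together, from Sdhb at 74.1 to Sdhd at 97.7. Complex I was lowest, with a median of 56.9, from Ndufa11 at 18.8 to Ndufb9 at 195. Within complex I the 7 core subunits, which carry the redox centers, had a median of 50.6 and the 30 accessory subunits 60.5. No stoichiometry can be read from these values, since mRNA level is not protein level.

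**Figure D1:**
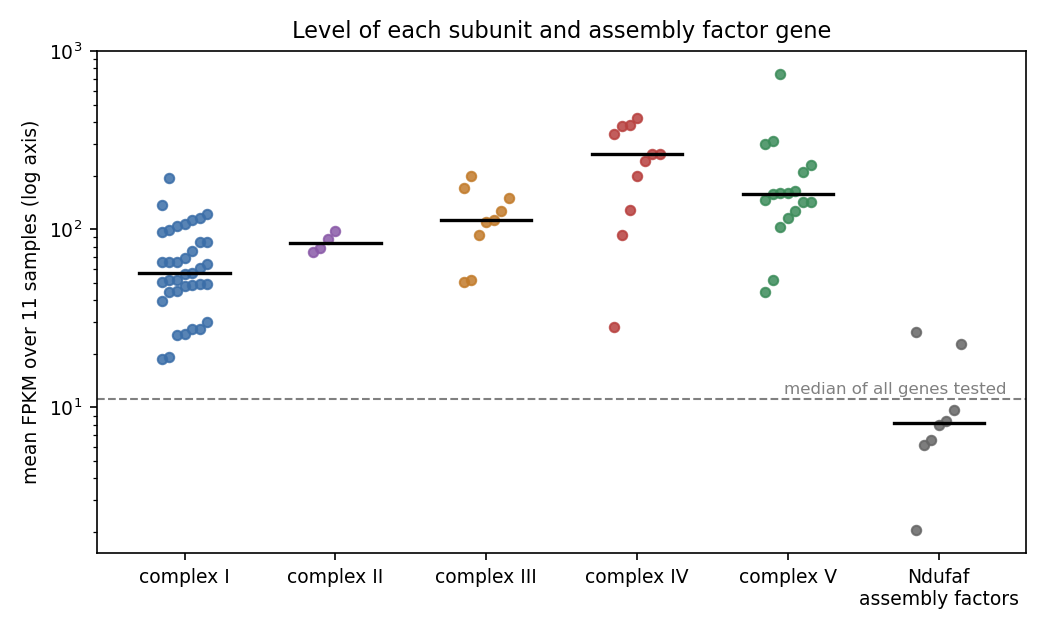
Mean FPKM of each gene over the 11 samples (log axis), 1 point per gene, grouped by complex, with the Ndufaf assembly factors on the right. Black bars are group medians, from 8.17 FPKM for the Ndufaf genes to 263 for complex IV, and the dashed line is the median of all genes tested, 11.2.

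For BG136 against vehicle, no respiratory chain gene passed the test. All 78 subunits had slightly lower means in BG136, and this shared direction was not present once vehicle 11 and 12 were left out. Values were tested as log2(FPKM + 1) with limma across 11356 genes with an FPKM of at least 1 in at least 6 of the 11 samples, two-sided with Benjamini-Hochberg adjustment. Of the 99 genes, 94 were tested and 5 were under that minimum. None of the 94 had an adjusted p under 0.05, and the share of all genes called was 0%. At an unadjusted p under 0.05, 2 of the 94 were lower in BG136 and 0 were higher, where 1.13% of all genes tested were lower and 0.925% were higher. With limma's voom on recovered reads the number called was also 0% of all genes, and at an unadjusted p under 0.05 2 of the 78 subunits were lower and 0 higher, against 1.32% and 1.19% of all genes. No subunit and no Ndufaf gene had every BG136 sample below or above every vehicle sample, which held for 0.114% of all genes tested in each direction.

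All 78 subunits had a negative log2 difference, BG136 minus vehicle, whereas 42.6% of all genes tested did. The range was narrow, from -0.30 for Ndufb2, a complex I accessory subunit, to -0.02 for Sdha, with a median of -0.12 against 0.02 for all genes. By complex the medians were -0.11 for complex I, -0.06 for complex II, -0.12 for complex III, -0.14 for complex IV and -0.13 for complex V. Other scalings kept the negative median, but 74 of 78 subunits were lower after quantile normalization and 70 of 78 with each sample rescaled to a constant sum, where 49% and 25.2% of all genes were lower. The shared direction was not present without vehicle 11 and vehicle 12: 38 of 78 subunits were then lower, against 45% of all genes, and the median difference was 0.005. In that fit no member had an adjusted p under 0.05 (0% of all genes), none of the 78 had an unadjusted p under 0.05 (0.784% of all genes lower, 1.09% higher), and none had groups that did not overlap (0.308% of all genes below, 0.458% above). Vehicle 11 and 12 had the highest subunit means of the vehicle group, so leaving them out had to raise the difference. Without vehicle 11 alone the median was -0.052, with 68 of 78 subunits lower, against 41.5% of all genes. Without vehicle 12 alone it was -0.081, with 73 of 78 lower, against 42%. Leaving out vehicle 1, the lowest vehicle sample, gave -0.179, and leaving out BG136 2, the highest BG136 sample, gave -0.176.

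In the samples at either end, the subunits of all complexes deviated the same way. Vehicle 11 and vehicle 12 had all 78 subunits above each gene's mean over the 11 samples, by a mean of 0.39 and 0.26 on the log2 scale. Vehicle 1 and BG136 1 had 0 of 78 above it, with means of -0.24 and -0.17. Between these ends, the number above the mean was 15 in vehicle 2, 30 in vehicle 3 and 52 in vehicle 7, and 59 in BG136 2, 3 in BG136 4, 6 in BG136 6 and 27 in BG136 7-9. The lowest and the highest vehicle samples therefore lay farther apart than the group means did. Vehicle 11 was the highest of the 11 samples for 64 of 78 subunits (82.1%, against 22.7% of all genes), and vehicle 11 and 12 were the 2 highest for 55 (70.5%, against 12.6%).

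**Figure D2:**
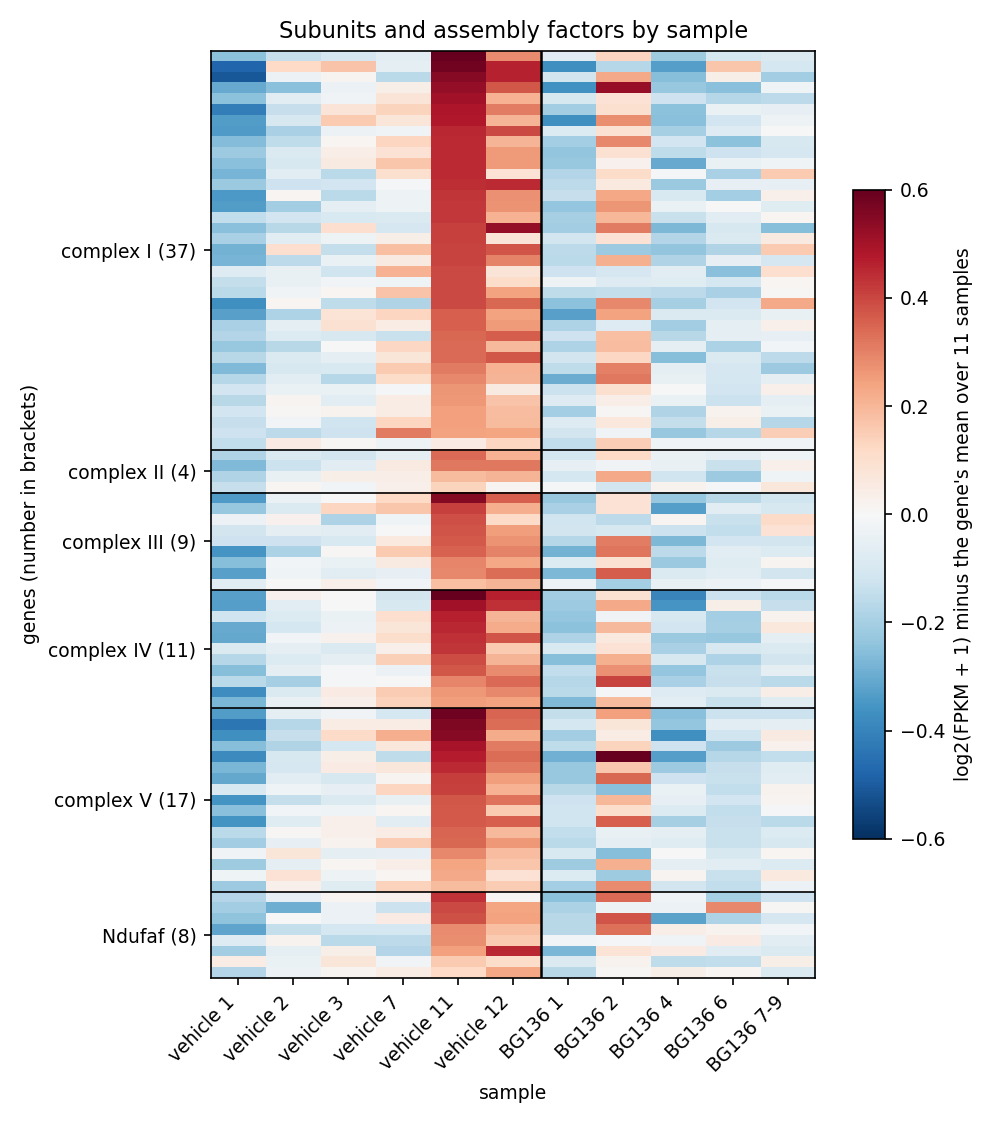
Deviation of log2(FPKM + 1) from each gene's mean over 11 samples (color, cut at 0.6 in each direction), 1 row per gene grouped by complex, with the number of genes in brackets, and 1 column per sample, vehicle left of the line. Vehicle 11 and 12 are above the mean for all 78 subunits and all 8 Ndufaf genes, and vehicle 1 and BG136 1 are below it for all 78 subunits.

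The mean level of vehicle 11 and 12 stood above that of the other 4 vehicle samples for every subunit. The ratio of mean FPKM had a median of 1.31 over the 78 subunits and ran from 1.08 for Sdha to 1.64 for Ndufa4. Medians by complex lay close together, at 1.31 for complex I, 1.25 for complex II, 1.29 for complex III, 1.32 for complex IV and 1.34 for complex V. The 8 Ndufaf genes had a median ratio of 1.29, from 1.13 for Ndufaf6 to 1.47 for Ndufaf3. These ratios describe samples that were singled out because they were high, so they carry no test. They are also not corrected for summed FPKM over all genes. Relative to the mean of the samples, that sum was 1.107 in vehicle 11 and 1.074 in vehicle 12, against 0.9606 to 1.012 in the other 4. As a share of all FPKM, the 78 subunits made up 2.83% in vehicle 11 and 2.66% in vehicle 12, against 2.15% to 2.45% in the other 4. The summed level of 8 adipocyte markers was also highest in vehicle 11, at 166 FPKM, against 88 to 100 in the other vehicle samples, vehicle 12 included, and 32.3 to 84 in the BG136 samples; its part in the subunit levels was not tested.

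**Figure D3:**
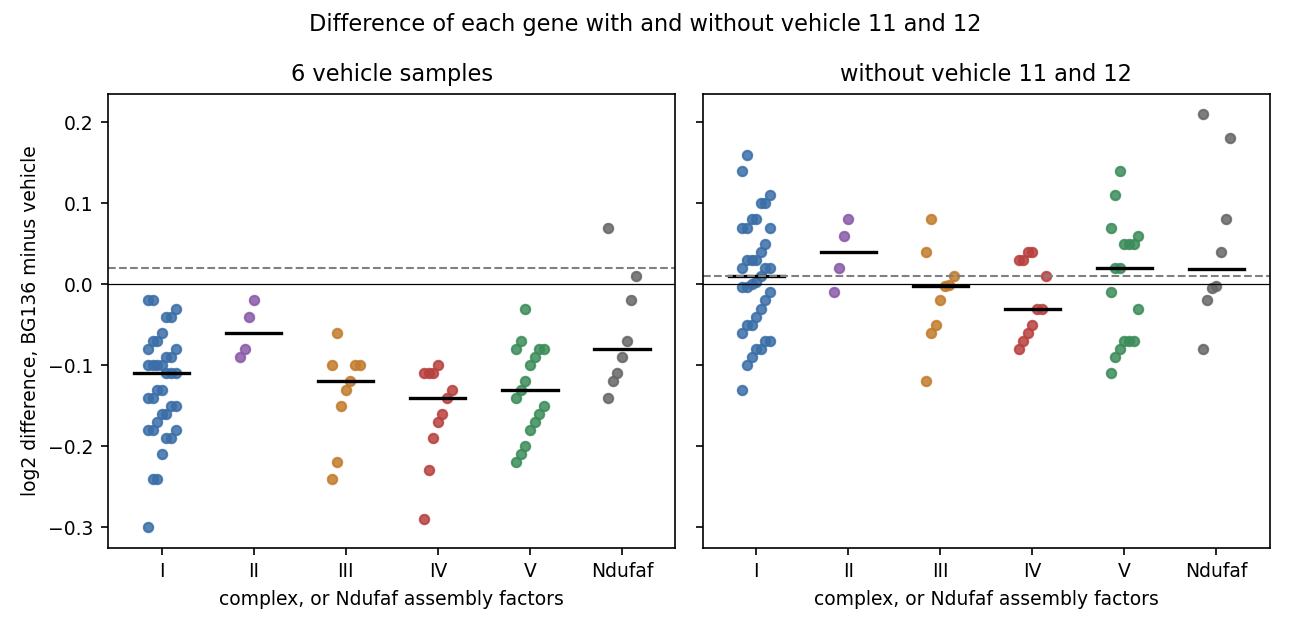
Log2 difference, BG136 minus vehicle, of each gene on the log2(FPKM + 1) scale by complex, with 6 vehicle samples (left) and without vehicle 11 and 12 (right). Black bars are group medians and dashed lines the median of all genes tested, 0.02 and 0.01; all 78 subunits lie below 0 on the left and 38 of 78 on the right.

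Complex I takes electrons from NADH. All 37 of its subunits were lower in BG136 with 6 vehicle samples and 17 of 37 without vehicle 11 and 12. Ndufs8, a core subunit that holds iron-sulfur clusters, had the smallest unadjusted p of all 94 genes tested. Its FPKM was 75.2, 83, 84.9, 94.9, 111 and 99.7 in vehicle 1, 2, 3, 7, 11 and 12, and 75.6, 76, 75.3, 73.4 and 84.6 in BG136 1, 2, 4, 6 and 7-9. The BG136 values lay around the low end of the vehicle range and overlapped it. The log2 difference was -0.24 (95% interval -0.43 to -0.04, limma adjusted p = 0.978), and without vehicle 11 and 12 it was -0.13 (-0.29 to 0.03).

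Ndufb9, an accessory subunit and the most abundant complex I gene, read 165, 177, 178, 192, 262 and 263 in the vehicle samples and 173, 201, 165, 186 and 186 in the BG136 samples. Vehicle 11 and 12 were far above every other sample, and the remaining samples of both groups interleaved. Its log2 difference was -0.15 (-0.43 to 0.12), and 0.03 (-0.12 to 0.19) without vehicle 11 and 12. Ndufa7, another accessory subunit, read 120, 127, 130, 142, 171 and 175 in the vehicle samples and 125, 147, 113, 127 and 121 in the BG136 samples, with the same pair on top and the rest mixed. Ndufa9, an accessory subunit near the quinone site, had a log2 difference of -0.18 (-0.39 to 0.02) that was -0.07 (-0.23 to 0.09) without the pair. Its vehicle samples ran from 42.8 to 63.2 FPKM and its BG136 samples from 42.4 to 50.2.

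Complex II, succinate dehydrogenase, is also an enzyme of the TCA cycle, and its 4 genes had the median difference nearest to 0 of the 5 complexes with 6 vehicle samples, -0.06. Without vehicle 11 and 12 its median, 0.04, was the farthest from 0. Sdha, the flavoprotein that oxidizes succinate, read 71.1, 79.1, 77.5, 80, 86.2 and 79.3 in the vehicle samples and 77.6, 72.6, 79.5, 78.1 and 82.1 in the BG136 samples. The groups overlapped over nearly their whole range, and vehicle 11 stood above the others by little. The log2 difference of Sdha was -0.02 (-0.14 to 0.11), which became 0.02 without vehicle 11 and 12 and 0.04 with a constant sum. Sdhb, the iron-sulfur subunit, read 61.1, 67.1, 70.1, 76.3, 91.7 and 91.7 in the vehicle samples and 71, 72.4, 71.2, 66.9 and 75.2 in the BG136 samples. Here vehicle 11 and 12 shared the highest value and every BG136 sample lay within the range of the other 4 vehicle samples. Sdhc and Sdhd, the membrane anchors, had log2 differences of -0.04 (-0.24 to 0.16) and -0.09 (-0.29 to 0.11); without the pair these were 0.08 (-0.04 to 0.21) and -0.01 (-0.21 to 0.19). Sdhd was highest in BG136 2, at 114 FPKM, just above 112 in vehicle 12.

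Complex III hands electrons from ubiquinol to cytochrome c, and all 9 of its subunits were lower in BG136 with 6 vehicle samples, 6 of 9 without vehicle 11 and 12. Uqcr11, a small membrane subunit, read 133, 164, 169, 183, 247 and 216 in the vehicle samples and 144, 179, 144, 150 and 155 in the BG136 samples. Vehicle 1 was the lowest of all 11 samples and vehicle 11 the highest. The log2 difference was -0.24 (-0.53 to 0.05), and -0.06 (-0.28 to 0.16) without the pair. Uqcr10, another small subunit, had a difference of -0.22 (-0.46 to 0.02), and -0.12 (-0.34 to 0.11) without the pair.

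Uqcrh, the most abundant complex III gene, had 245 FPKM in BG136 2, close to 251 in vehicle 11 and 241 in vehicle 12, while the other BG136 samples read 161, 176, 187 and 185. Its log2 difference was -0.10 (-0.40 to 0.20), and 0.04 without vehicle 11 and 12. Uqcrc2, a core protein of the matrix side, was lowest in that same BG136 2 sample, at 44.6 against 50 to 51.1 in the other BG136 samples. Uqcrh has an implied length of 546 bases and Uqcrc2 of 1882, and the part of length in their levels in BG136 2 was not tested. Cyc1, the cytochrome c1 subunit that passes electrons to cytochrome c, read 101, 105, 104, 109, 142 and 130 in the vehicle samples and 101, 102, 99.6, 98.4 and 116 in the BG136 samples. BG136 7-9 was above its own group and below vehicle 11 and 12.

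Cycs, the mobile carrier between complexes III and IV, read 37.2, 37.1, 38.3, 38.1, 47 and 50.1 in the vehicle samples and 32.3, 47, 34.7, 35.2 and 33.2 in the BG136 samples. In 4 of 5 BG136 samples it was below every vehicle sample, and BG136 2 matched vehicle 11. The log2 difference was -0.18 (-0.41 to 0.06, limma adjusted p = 0.978), and -0.06 (-0.27 to 0.16) without vehicle 11 and 12. With BG136 2 left out, the difference was -0.27. The Cycs transcript has an implied length of 3154 bases, against a median of 784 for the subunits, and its difference was again -0.18 after a trend on length was removed.

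Complex IV, cytochrome c oxidase, reduces oxygen, and all 11 of its subunits were lower in BG136 with 6 vehicle samples, 6 of 11 without the pair. Ndufa4, first described with complex I and now placed in complex IV, had the largest difference of the complex. It read 154, 197, 193, 179, 326 and 268 in the vehicle samples and 167, 206, 147, 177 and 173 in the BG136 samples. Vehicle 11 was far above vehicle 1, and 3 of 5 BG136 samples lay within the range of the other 4 vehicle samples, with BG136 2 above it and BG136 4 below it. The log2 difference was -0.29 (-0.66 to 0.07), and -0.06 (-0.28 to 0.17) without vehicle 11 and 12.

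Cox4i1, the ubiquitous isoform of the subunit that ATP can regulate, read 359, 365, 359, 389, 513 and 424 in the vehicle samples and 357, 404, 333, 356 and 358 in the BG136 samples. Cox8a read 369, 392, 400, 459, 544 and 478 in the vehicle samples and 347, 482, 388, 365 and 385 in the BG136 samples. For both genes vehicle 11 was highest and BG136 2 was the highest BG136 sample. Their log2 differences were -0.14 (-0.35 to 0.07) and -0.16 (-0.40 to 0.09), and -0.03 (-0.17 to 0.12) and -0.05 (-0.27 to 0.18) without the pair. Cox6a1, whose promoter window is printed above, had a difference of -0.19 (-0.42 to 0.03), Cox7a2 of -0.23 (-0.49 to 0.03), Cox6b1 of -0.13 (-0.36 to 0.10) and Cox7b of -0.11 (-0.34 to 0.13). Without the pair these were -0.07, -0.08, -0.03 and 0.01. Cox7a2l, which takes part in joining complexes III and IV and was named after its values were seen, was the steadiest of this group, at 105 to 130 FPKM in the vehicle samples and 105 to 108 in the BG136 samples.

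Complex V makes ATP, and all 17 of its subunits were lower in BG136 with 6 vehicle samples, 8 of 17 without the pair. Atp5b read 734, 784, 718, 719, 911 and 848 in the vehicle samples and 700, 624, 745, 697 and 752 in the BG136 samples. Its lowest sample was BG136 2 and its highest vehicle 11. The log2 difference was -0.16 (-0.34 to 0.03), and -0.07 (-0.23 to 0.08) without the pair. Atp5d, the delta subunit of the central stalk, was the other of the 2 genes with an unadjusted p under 0.05, at -0.21 (-0.41 to -0.01, limma adjusted p = 0.978). It read 133, 139, 137, 155, 189 and 164 in the vehicle samples and 126, 119, 138, 128 and 144 in the BG136 samples, with overlap between groups, and its difference was -0.11 (-0.26 to 0.05) without the pair.

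Atp5o, the oligomycin sensitivity conferring protein of the peripheral stalk, had a difference of -0.20 (-0.39 to 0.004), and -0.09 (-0.25 to 0.07) without the pair. Atp5g2, a gene of the c ring, read 266, 316, 295, 341, 353 and 344 in the vehicle samples and 269, 377, 287, 280 and 302 in the BG136 samples. Its highest sample was BG136 2, and its difference was -0.08 (-0.30 to 0.14), which was -0.01 (-0.25 to 0.22) without the pair and 0.02 with the length trend removed. Atp5mpl, named after its values were seen, stood out in the same sample, at 72.3 FPKM against 34 to 38.8 in the other BG136 samples and 32.8 to 60.1 in the vehicle samples.

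BG136 2 was the sample in which the deviations varied most between subunits. The SD of the deviations over the 78 subunits was 0.18 there and 0.07 to 0.12 in the other 10 samples. The deviations in BG136 2 ran from -0.26 for Atp5b to 0.73 for Atp5mpl, whereas those in vehicle 11 ran from 0.05 for Ndufs1 to 0.75 for Ndufa4. Across the 78 subunits the Spearman correlation of deviation and length was -0.402 in BG136 2, -0.428 in vehicle 11 and -0.498 in vehicle 12, and it ran from -0.231 to 0.529 in the other samples; these are correlations across genes that share a library.

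Subunit mRNAs are short, and the deviations of several libraries were related to transcript length over all genes. The median length implied by the table was 784 bases for the 78 subunits, 1476 for the 8 Ndufaf genes and 3405 for all genes tested. Over the 11356 genes, the Spearman correlation of a gene's deviation with its length was -0.644 in vehicle 11 and -0.566 in vehicle 12, and 0.434 in vehicle 1 and 0.46 in BG136 1. It was near 0 in vehicle 7, at -0.00895, and -0.297 to 0.42 in the remaining 6 samples. The correlation of the log2 difference, BG136 minus vehicle, with length was 0.499, and -0.161 without vehicle 11 and 12. These are correlations across genes, which are not independent, and are given as a description.

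Short genes as a whole deviated the same way as the subunits in their medians, though not gene by gene: Cox6a2, at 659 bases, had nearly the same mean in vehicle 11 and 12 as in the other vehicle samples. The 623 genes tested of up to 1000 bases had a median log2 difference of -0.09 and median deviations of 0.33 in vehicle 11 and 0.21 in vehicle 12. The 45 subunits of that length had -0.14, 0.44 and 0.28. The 33 subunits over 1000 bases had -0.10, 0.35 and 0.20, while the 10733 genes of that length had 0.02, -0.01 and -0.02. Between 1500 and 2000 bases, 13 subunits had a median deviation of 0.37 in vehicle 11 and 1121 genes had 0.19. With a smooth trend on length removed within each sample, the subunit median was -0.04 with 60 of 78 lower, against 50.9% of all genes, and the means were 0.11 in vehicle 11 and 0.08 in vehicle 12. In that fit 5 of 78 subunits were lower at an unadjusted p under 0.05, against 1.26% of all genes, and 0 had an adjusted p under 0.05. With the trend removed and without the pair, 48 of 78 were lower, against 51.3% of all genes, with a median of -0.02. The part of length in the difference was not tested beyond these values.

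**Figure D4:**
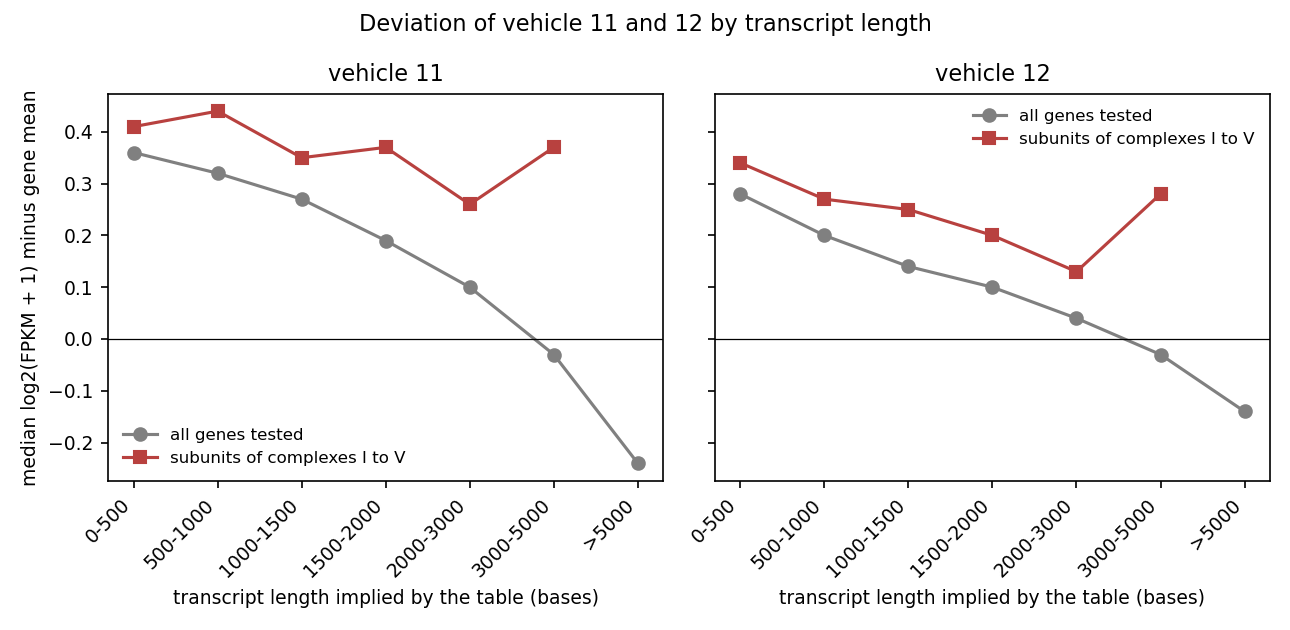
Median deviation of log2(FPKM + 1) from the gene mean in vehicle 11 (left) and vehicle 12 (right) by transcript length in bases, for all genes tested (gray) and for the subunits (red). In vehicle 11 all genes go from 0.36 at up to 500 bases to -0.24 above 5000, and subunits lie above them in each bin; the subunit bin of 3000 to 5000 bases holds 1 gene, and that of 2000 to 3000 holds 7.

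The Ndufaf assembly factors build complex I, and their median level was far below that of its subunits, although Ndufaf8 and Ndufaf2 stood above the lowest subunit, Ndufa11. With 6 vehicle samples, 6 of 8 were lower in BG136, with a median of -0.08 against -0.11 for the 37 complex I subunits. Without vehicle 11 and 12, 4 of 8 were lower, with a median of 0.02 against 0.01. The difference between the 2 kinds of gene was not tested, since the genes share samples and were chosen with earlier results known. All 8 were above their mean in vehicle 11 and in vehicle 12, as the subunits were, and 0 of 8 in BG136 1.

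With 6 vehicle samples, 2 Ndufaf genes had a difference above 0. Ndufaf4, an early assembly factor, read 4.67, 5.39, 5.55, 5.55, 7.6 and 7 in the vehicle samples and 5.28, 7.87, 6.25, 6.15 and 5.97 in the BG136 samples, so that BG136 2 was highest. Its log2 difference was 0.07 (-0.17 to 0.32), and 0.21 (-0.003 to 0.42) without the pair. Ndufaf3, its partner in early assembly, read 5.51, 5.14, 6.33, 5.87, 8.89 and 7.87 in the vehicle samples and 5.6, 6.37, 6.33, 8.18 and 6.55 in the BG136 samples, with BG136 6 near vehicle 11 and 12. Its difference was 0.01 (-0.26 to 0.29), -0.02 after quantile normalization and 0.18 (-0.03 to 0.38) without the pair. Neither passed the test in either fit.

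Ndufaf1, which acts on the membrane arm, had a log2 difference of -0.07 (-0.24 to 0.09), and -0.002 without the pair. Ndufaf2, a paralog of a complex I subunit, had -0.11 (-0.36 to 0.14), and 0.04 without the pair. Ndufaf5, a hydroxylase of Ndufs7, had -0.09 (-0.35 to 0.17), and -0.005 without the pair. Ndufaf6 had -0.12 (-0.27 to 0.03), -0.08 without the pair, and was the least abundant, at 1.95 to 2.38 FPKM in the vehicle samples and 1.73 to 2.11 in the BG136 samples. Ndufaf7, a methyltransferase, had -0.02 (-0.20 to 0.16), and 0.08 without the pair. Ndufaf8, at 494 bases the shortest, had -0.14 (-0.43 to 0.14), -0.02 without the pair, and was high in BG136 2, at 34.3 FPKM against 20.7 to 24.3 in the other BG136 samples.

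Assembly genes outside the Ndufaf series were counted by complex. Among 10 further complex I assembly genes, 7 were lower in BG136, with a median of -0.03, and 3 of 10 were lower without vehicle 11 and 12, with a median of 0.04. For complex IV, 11 of 21 assembly genes were lower, with a median of -0.01, while all 11 subunits were; without the pair 2 of 21 were lower, with a median of 0.08. All 4 complex II assembly factors were lower, with a median of -0.18, and without the pair 3 of 4 were lower, with a median of -0.02. Their median length was 822 bases, with Sdhaf2 at 3097, against 1467 for the complex IV list. With the length trend removed the medians were -0.10 for the complex II list and 0.03 for the complex IV list. The part of length was not tested. Sdhaf3 had the largest difference of the 4 complex II assembly factors, at -0.28 (-0.58 to 0.03), and -0.16 without the pair. For complex III 2 of 5 and for complex V 3 of 3 assembly genes were lower, and without the pair 0 of 5 and 2 of 3. None of these genes passed the test.

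Among genes of related pathways, the TCA cycle supplies NADH and succinate to the chain. Of 17 TCA cycle genes 12 were lower in BG136, with a median of -0.06 and mean deviations of 0.12 in vehicle 11 and 0.08 in vehicle 12, at a median length of 2409 bases; without the pair 10 of 17 were lower, with a median of -0.03. Citrate synthase, Cs, had a log2 difference of 0.02 (-0.09 to 0.13), and 0.01 without the pair. Of 11 tested regulators of mitochondrial biogenesis 5 were lower, with a median of 0.01 and mean deviations of -0.07 and 0.02 in vehicle 11 and 12; without the pair 6 of 11 were lower, with a median of -0.003. Among these were Nrf1, at -0.06 (-0.19 to 0.07), Gabpa, at 0.13 (-0.05 to 0.32), and Tfam, the packaging protein of mitochondrial DNA, at -0.07 (-0.27 to 0.13); without the pair these were -0.07, 0.06 and -0.003. None of the TCA cycle or biogenesis genes passed the test.

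Tissue isoforms showed which version of a subunit the tumors carried. Cox4i2, the isoform known from lung and hypoxia, read 0.835 to 2.53 FPKM and made up 0.206% to 0.709% of the sum of Cox4i1 and Cox4i2. Ndufa4l2, a hypoxia-induced relative of Ndufa4, read 3.31, 3.16, 2.65, 2.7, 3.68 and 3.71 in the vehicle samples and 4.34, 4.62, 3.93, 2.51 and 3.58 in the BG136 samples. In 3 of 5 BG136 samples it was above every vehicle sample, and BG136 6 was the lowest of all. Its log2 difference of 0.18 (-0.08 to 0.44, limma adjusted p = 0.978) was the highest of the 94 genes, and was 0.26 (-0.02 to 0.55) without vehicle 11 and 12. It made up 1.12% to 2.61% of its pair with Ndufa4.

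Cox6a2, the heart and skeletal muscle isoform of Cox6a, was present in every sample, with a mean of 63.8 FPKM, above the complex I subunit median of 56.9. It read 85.1, 42.1, 68.2, 66.9, 61 and 72.5 in the vehicle samples and 58.8, 76.3, 55.9, 62.1 and 52.3 in the BG136 samples. It made up 10.5% to 19.7% of the sum of Cox6a1 and Cox6a2. Its log2 difference was -0.09 (-0.42 to 0.23), and vehicle 11 and 12 did not stand above the rest, with a ratio of 1.02 to the other 4 vehicle samples. It did not follow the summed muscle markers: vehicle 1, with 5.73 FPKM of markers, had the highest Cox6a2, and vehicle 3, with 322, had 68.2.

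The other muscle isoforms were near the floor. Cox8b, the muscle isoform of Cox8, rested on 0 to 16 recovered reads per sample and was highest in vehicle 11, at 2.79 FPKM, and vehicle 3, at 2.3, the samples with 174 and 322 FPKM of muscle markers. BG136 4, with a marker sum of 206, had 0.656 FPKM of Cox8b, and BG136 6, with 28.7, had 0.694. It was listed at 0 in vehicle 1, vehicle 12 and BG136 1, where the marker sum was 5.73, 5.97 and 5.19. Cox7a1, the muscle isoform of Cox7a, ran from 0.483 in BG136 1 to 1.57 in vehicle 3. Whether RNA from adjacent muscle adds to Cox8b or Cox7a1 was not tested. Cox6b2 and Cox7b2, testis isoforms, stayed at 0.197 to 0.89 and 0 to 0.532 FPKM. The brown fat markers Ucp1, Cidea and Elovl3 were not analysed here.

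**Figure D5:**
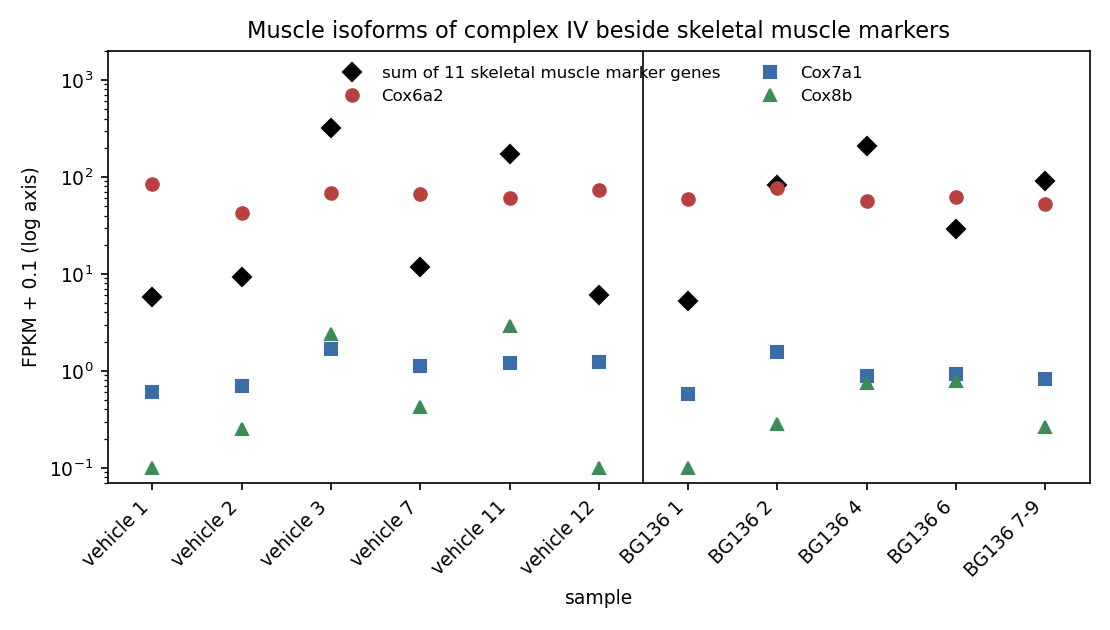
FPKM plus 0.1 (log axis) of Cox6a2, Cox7a1 and Cox8b and of the sum of 11 skeletal muscle marker genes in each sample, vehicle left of the line. The marker sum spans 5.19 to 322 FPKM while Cox6a2 stays between 42.1 and 85.1, and Cox8b is highest in vehicle 3 and 11.

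Gene copies of complex I subunits departed from their parent genes in a different sample, BG136 7-9; they were named after their values were seen. Ndufs6b read 4.95, 4.89, 5.39, 6.68, 7.89 and 4.63 in the vehicle samples and 3.87, 5.12, 3.52, 3.85 and 11.3 in the BG136 samples. In BG136 7-9 it made up 16.4% of its pair with Ndufs6, against 5.62% to 8.93% in the other 10 samples, while Ndufs6 itself read 57.7 there, within the range of the other BG136 samples. The pseudogene Ndufab1-ps went the other way, at 2.04 FPKM in BG136 7-9 against 3.55 to 6.08 elsewhere, as did Ndufb4b, at 1.57 against 2.48 to 4.44. Over all genes tested, 27 (0.238%) lay more than 0.5 on the log2 scale below every other sample in BG136 7-9, of which Ndufab1-ps was the only respiratory chain gene. Only 1 gene lay as far above, and it was not a respiratory chain gene. Ndufs6b and Ndufb4b did not reach that margin of 0.5. Ndufb4c was under the minimum level, at 0.115 to 1.25 FPKM. Near-identical copies can share reads with their parents, so how the reads were divided is uncertain.

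The authors' deposited table gave all 78 subunits a negative log2 fold change with a median of -0.15, where 7516 of all 15170 genes were lower. Its base means fit all 12 libraries, with BG136 libraries 7 and 9 counted separately and vehicle 11 and 12 included. Its p-values are therefore not comparable with those of the 11-sample fit and are no independent support. Of the 78, 14 had an unadjusted p under 0.05 in the authors' deposited table, the lowest being 0.0116 for Ndufs8, and the lowest q there was 0.735. Of the 8 Ndufaf genes 7 were lower in the authors' deposited table, with none under an unadjusted p of 0.05. For comparison, the authors' deposited table as a whole had 766 of 15170 genes with an unadjusted p under 0.05 and 9 with a q under 0.05.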

How the data were processed

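The authors deposited 1 table with FPKM per library; its header says only expression, so FPKM was inferred from the values. The labels' protocols name a total RNA kit and a stranded poly(A) library kit. The submitters' processing notes list build GRCm39 and the tools HISAT2, Trimmomatic, HTSeq, Cufflinks and DESeq, without versions. The deposited base means are a signal over all libraries and a signal per group. Per the file headers, the remaining columns hold the authors' linear fold change, log2 fold change, p-value and q-value. These are used only where the authors' table is named.

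FPKM values are whole multiples of 1 read: scaled to the base means, 100% of recovered reads lay within 0.1 of a whole number. The implied lengths had a Spearman rho of 0.798 with the longest GENCODE M21 transcript over 14730 genes matched by name. BG136 libraries 7 and 9 gave a chi-square per gene of 0.285, against 7.88 to 57.4 in 29 other pairs within groups.

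Tests used limma 3.58.1 in R 4.3.3 (moderated linear model with a trend) on log2(FPKM + 1), which understates differences of low genes. Intervals are 95% intervals of that fit. A score is the mean over genes of the log2 value minus the gene's mean. The length trend was a loess with a span of 0.3. Python 3.11.15 was used for tables and figures. The fit was tested on simulated data.

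Members and lists were chosen with earlier results of these data known. Named genes were, per complex, the 2 subunits with the highest mean FPKM and the 2 with the smallest unadjusted p, all 4 Sdh genes, Cyc1, Cycs, every Ndufaf gene, every isoform with its partner, and every member under the minimum level. Others are named as extremes of a range, as members of a list, or where the text says so. Alternatives were another pseudocount, no minimum, other scalings, sample weights, voom, a replicate block and leaving samples out. Rescaling to a constant sum was chosen after seeing the data.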

Additional observations from a re-analysis of the deposited data

Results flagged for a closer look

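The values of 41 genes named by the rule and 9 mean scores were examined in both groups by Dixon's criterion, which marks a highest or lowest sample far from the rest. In 6 of these 100 groups a sample stood apart, where chance flags about 1 in 20 groups. All 6 were values of single genes, and 0 of the 18 groups of mean scores had a sample set apart. Atp5mpl and Ndufs6b, which also stood apart, are among 5 genes named after their values were seen and are not part of that count. BG136 2 was set apart for Atp5mpl at 72.3 FPKM (34 to 38.8 in the other BG136 samples), Cycs at 47 (32.3 to 35.2), Ndufaf8 at 34.3 (20.7 to 24.3) and, on the low side, Uqcrc2 at 44.6 (50 to 51.1). BG136 7-9 was set apart for Cyc1 at 116 FPKM (98.4 to 102), Ndufs8 at 84.6 (73.4 to 76) and Ndufs6b at 11.3 (3.52 to 5.12). Vehicle 11 was set apart for Ndufaf5 at 13.2 FPKM (8.3 to 9.69 in the other vehicle samples).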

How the results depend on the processing

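The number of genes with a limma adjusted p under 0.05 was 0 over all genes and over the respiratory chain genes under every alternative run, leaving out each of the 11 samples in turn included (0 to 0). The subunit median of -0.12 ran from -0.179 to -0.052 with samples left out in turn. Reversed log2 differences of named genes follow, without a cause tested. Without vehicle 11 and 12: Cox4i2 0.02, Cox7b 0.01, Ndufaf2 0.04, Ndufaf7 0.08, Ndufb9 0.03, Sdha 0.02, Sdhb 0.06, Sdhc 0.08 and Uqcrh 0.04. With the length trend removed: Atp5g2 0.02, Cox4i2 0.07, Cox6a2 0.01, Sdhc 0.01 and Uqcrh 0.01. With the trend removed and without vehicle 11 and 12: Cox4i2 0.01, Ndufaf2 0.02, Ndufaf7 0.06, Ndufb9 0.02, Sdhb 0.03, Sdhc 0.06 and Uqcrh 0.03. With a constant sum: Cox4i2 0.01, Ndufaf7 0.03, Sdha 0.04 and Sdhc 0.01. After quantile normalization: Ndufaf3 -0.02, Sdha 0.01 and Sdhc 0.004. With sample weights: Cox4i2 0.19, Ndufaf7 0.04, Sdha 0.03, Sdhb 0.02 and Sdhc 0.02. Cox4i2 was 0.03 with all 12 libraries entered and 0.07 with voom. Leaving out samples in turn gave -0.14 to 0.08 for Cox4i2, -0.06 to 0.09 for Ndufaf3, -0.06 to 0.03 for Ndufaf7, -0.04 to 0.01 for Sdha and -0.08 to 0.02 for Sdhc. Depth limits the isoforms Cox8b, Cox7a1, Cox6b2 and Cox7b2, which rest on few reads. It also limits Cox4i2, which rested on 9 to 29 recovered reads per sample outside BG136 7-9. There Ndufb4b rested on 21 to 35 reads and Ndufab1-ps on 30 to 50.

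Both groups share the numbers 1, 2 and 7. The labels do not pair samples, and a header of the authors' deposited table reads unpaired, so the numbers were not taken as pairs. Deviations of same-numbered samples correlated at 0.488, -0.422 and 0.26. These correlations cannot decide pairing, because the deviations of several libraries were also related to transcript length. The fit with number as a replicate block uses those 6 samples alone and so leaves out vehicle 11 and 12. It called 0 genes and gave a median of 0.061 over all subunits, above 0. By complex the medians were 0.070 for complex I, 0.096 for complex II, 0.014 for complex III, 0.045 for complex IV and 0.062 for complex V. In this fit 20 of 78 subunits were lower, against 42% of all genes. Under this block the reversed genes were Atp5g2 0.03, Cox4i1 0.01, Cox6b1 0.01, Cox7a2 0.01, Cox7b 0.06, Cyc1 0.01, Ndufa4 0.04, Ndufa7 0.01, Ndufaf2 0.05, Ndufaf5 0.06, Ndufaf7 0.04, Ndufaf8 0.10, Ndufb9 0.07, Sdha 0.01, Sdhb 0.10, Sdhc 0.10, Sdhd 0.09, Uqcr11 0.002 and Uqcrh 0.11.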
